A study of Mus musculus with 2 samples.

Results

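Retinal progenitors that carried transcripts of G2 and mitosis were examined in the peripheral retina of mouse embryos at embryonic day E13.5. They were chosen by UMIs (unique molecular identifiers, each standing for 1 captured mRNA molecule). A cell entered the progenitor gate with at least 1 UMI of Fgf15, at least 3 of Sfrp2, at most 2 of Atoh7 and none of Gja1 or Otx1. It became a member when the UMIs of 5 mitosis genes, Cenpf, Ube2c, Ccnb1, Cdc20 and Plk1, summed to at least 10. The rule selected 218 of 3512 albino cells and 466 of 5883 pigmented cells, 684 of 9395 cells in all. Since measured values of these genes chose the members, their levels are given as a description, and no test was made of them.

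Each group was 1 droplet library of cells from 3 pooled embryos. The albino library has the strain label Swizz ICR, and the pigmented library has the strain label Tyrc2j. Tyrc2j is known as a tyrosinase allele that causes albinism, and this goes against the title of that library. The titles were followed here. If the titles had been exchanged, every albino over pigmented ratio would turn round. Both groups carried the alleles a-Cre;Td and both were sorted by flow cytometry for TdTomato. The sort therefore took descendants of cells in which that Cre, driven by an enhancer active in the distal optic cup, had been active, and not the whole eye. Strain, library and the sex of the embryos differed together between the libraries and cannot be told apart. Xist, the RNA of the inactive X chromosome, was found without a Y-linked UMI in 97.2% of the albino and 32.4% of the pigmented members. With 1 library a group there is no replicate check. Intervals of levels, shares and ratios are exact 95% intervals and cover counting error only, and those of list medians are taken over the genes of a list.

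Multipotent progenitors of the embryonic retina divide at the ventricular surface, and their nuclei move to that surface to enter mitosis. In G2, kinases and cyclins accumulate that drive entry into mitosis, and genes of the spindle and kinetochore are transcribed up to the division. The anaphase-promoting complex then marks mitotic cyclins for destruction, while D-type cyclins act earlier, in G1, where a cell commits to a further cycle. Cells that begin neurogenesis turn on Atoh7, and cells at the rim of the optic cup form the ciliary margin.

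Promoters of mitosis genes are known to hold CCAAT boxes and cell cycle homology regions (TTTGAA or TTCGAA), at which the NF-Y and DREAM complexes bind. The 250 bases before the RefSeq start (build GRCm38.p6) are shown for the 5 genes of the rule, for Fam83d, the gene that ranked highest in members over other progenitors, and for Cdc6, a replication gene that was lower in members. Cdc6 was chosen after its match was seen. Of the 10 lowest ranked genes, 7 had a single window, and of these only Cdc6 held an E2F match, while Ung, ranked lowest, had none. Ccne2, E2f2 and Myo1c, with no window or several, were not searched singly. Sequences are written 5′ to 3′ on the strand of the gene, and capitals mark each match. The letters searched were CCAAT as the box, TTTGAA or TTCGAA as the homology region, and for E2F sites TTTCCCGC or TTTGGCGC. Both strands were searched. The stretches lie at chr1:189688087-189688336 on the minus strand for Cenpf, chr2:164769679-164769928 on the plus strand for Ube2c and chr13:100786487-100786736 on the minus strand for Ccnb1. Those of Cdc20 and Plk1 lie at chr4:118437344-118437593 on the minus strand and chr7:122159185-122159434 on the plus strand. Those of Fam83d and Cdc6, both on the plus strand, lie at chr2:158767849-158768098 and chr11:98907901-98908150. The GENCODE annotation of Cdc6 begins upstream of its RefSeq start, at position 98907801, so the stretch printed lies inside the annotated gene. The annotated genes of Ube2c, Ccnb1, Cdc20 and Fam83d also reach into the last part of their stretches. The TTCAAA of Ube2c and the CCAAT nearest the start in Ccnb1 and in Cdc20 lie in that part.
Cenpf: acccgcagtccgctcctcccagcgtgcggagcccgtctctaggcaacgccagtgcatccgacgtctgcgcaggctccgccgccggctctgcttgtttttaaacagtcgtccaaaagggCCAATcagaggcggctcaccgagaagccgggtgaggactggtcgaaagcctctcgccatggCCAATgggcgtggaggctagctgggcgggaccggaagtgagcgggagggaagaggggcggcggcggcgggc
Ube2c: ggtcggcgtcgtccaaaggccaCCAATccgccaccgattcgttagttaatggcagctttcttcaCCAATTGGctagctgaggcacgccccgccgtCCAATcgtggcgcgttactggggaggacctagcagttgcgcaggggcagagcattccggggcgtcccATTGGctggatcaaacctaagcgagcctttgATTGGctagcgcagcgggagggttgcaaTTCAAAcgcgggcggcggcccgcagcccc
Ccnb1: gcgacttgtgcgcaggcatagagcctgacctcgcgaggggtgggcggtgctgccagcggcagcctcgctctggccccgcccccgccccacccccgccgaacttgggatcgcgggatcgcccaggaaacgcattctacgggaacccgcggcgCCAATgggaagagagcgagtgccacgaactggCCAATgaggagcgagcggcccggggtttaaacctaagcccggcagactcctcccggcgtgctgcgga
Cdc20: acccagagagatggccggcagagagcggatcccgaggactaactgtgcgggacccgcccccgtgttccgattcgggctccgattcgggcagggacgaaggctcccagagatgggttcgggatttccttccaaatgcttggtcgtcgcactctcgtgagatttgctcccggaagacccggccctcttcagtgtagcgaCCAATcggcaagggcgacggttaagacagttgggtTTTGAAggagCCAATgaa
Plk1: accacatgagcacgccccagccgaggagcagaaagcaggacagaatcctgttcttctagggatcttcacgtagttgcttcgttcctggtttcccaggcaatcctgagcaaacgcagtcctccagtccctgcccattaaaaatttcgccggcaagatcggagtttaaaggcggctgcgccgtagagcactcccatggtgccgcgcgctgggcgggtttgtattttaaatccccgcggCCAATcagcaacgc
Fam83d: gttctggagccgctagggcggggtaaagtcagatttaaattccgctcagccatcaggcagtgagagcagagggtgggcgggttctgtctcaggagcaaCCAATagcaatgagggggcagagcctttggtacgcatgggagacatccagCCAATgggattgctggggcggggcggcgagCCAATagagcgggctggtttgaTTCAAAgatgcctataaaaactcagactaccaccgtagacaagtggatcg
Cdc6: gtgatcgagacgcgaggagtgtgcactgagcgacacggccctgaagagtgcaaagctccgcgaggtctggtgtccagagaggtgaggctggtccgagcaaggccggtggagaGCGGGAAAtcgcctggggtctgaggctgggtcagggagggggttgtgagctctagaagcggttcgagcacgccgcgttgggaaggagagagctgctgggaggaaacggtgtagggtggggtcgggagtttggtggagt

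CCAAT on either strand occurred in the 300-base window (250 bases before to 50 after the start) of all 5 genes of the rule, beside 41.1% of 27025 genes in all. These genes had 32851 windows, and a gene was counted when any of its windows held the match. TTTGAA or TTCGAA occurred in 4 of the 5, Ccnb1 being the exception, beside 21.7% of all genes. In Cenpf and Plk1 that match lay after the start, outside the stretch printed. Over 4 lists of mitosis genes (kinases, cyclins, kinetochore, and spindle and cytokinesis), 61 of 75 genes had a RefSeq window. Of these, 44 held CCAAT (72.1%), 38 held TTTGAA or TTCGAA (62.3%) and 31 held both (50.8%), beside 8.61% of all genes with both. Of 23 replication genes with a window, 15 held CCAAT (65.2%), 4 held TTTGAA or TTCGAA (17.4%) and 3 held both (13.0%). Shares with CCAAT were also like those of mitosis genes among neurogenic genes (11 of 15, 73.3%) and margin genes (5 of 7, 71.4%), of which 1 each held both motifs (6.67% and 14.3%). The E2F letters were in 7 of the 23 replication genes (30.4%) and in 4 of the 61 mitosis genes (6.56%), beside 1.80% of all genes. Overlaps were looked for only in the genes of the rule and in ranked genes searched singly. There no match of 1 motif overlapped a match of another, but in Ube2c a CCAAT and its reverse complement ATTGG overlapped. A match of letters does not show that a factor binds there.

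The deposited matrices held 3676 albino and 6089 pigmented barcodes with 46271969 and 69965728 UMIs, from which barcodes under 500 genes or over 10% mitochondrial UMIs were dropped. Median depth in members was 12475 UMIs (1995 to 36278) in the albino and 12061 UMIs (1587 to 35435) in the pigmented library, above the 8997 and 8713 UMIs of the other cells of the progenitor gate. The libraries shared 8 barcodes, none of them of a member. Scrublet called 6 albino cells (0.171%) and 168 pigmented cells (2.86%) doublets, 0 and 10 of them members. It called too few albino cells to count as a working filter there, so the calls were not removed. Doublets can therefore remain, and markers of other cell types were measured in the members.

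Those markers were low in members as a group but not absent. Of 13 ganglion cell markers, all 13 had a UMI in members of both libraries, at a summed 378 CPM (counts per 1000000 UMIs) in albino and 386 CPM in pigmented members. In a ganglion cell gate (at least 10 UMIs of Stmn2, Sncg, Nefl and Nefm, none of Fgf15 or Sfrp2) the same sums were 19330 and 15908 CPM. The sum per member ran from 0 to 640 UMIs in the albino and from 0 to 429 UMIs in the pigmented library, with medians of 2 and 1, and 5 albino and 12 pigmented members held 10 or more. Photoreceptor markers summed to 29.9 CPM in albino and 33.5 CPM in pigmented members, with 7 and 8 of 8 genes found and Prdm13 at 0 in albino members. Amacrine and horizontal cell markers summed to 52.2 and 58.4 CPM, with 5 and 7 of 8 found. Tfap2a and Tfap2b were at 0 in albino members and Lhx1 at 0 in both libraries. Pigment epithelium markers summed to 4.12 and 4.72 CPM, and Tyr, Tyrp1, Slc45a2 and Rlbp1 were at 0 in both. Mesenchyme markers summed to 42.6 and 39.1 CPM, surface ectoderm and lens markers to 33.7 and 31.7 CPM with Krt5 and Krt14 at 0, and blood and macrophage markers to 0.344 and 3.42 CPM.

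The 5 genes that chose the members contributed unequally. Ube2c, the ubiquitin-conjugating enzyme of the anaphase-promoting complex, stood at 1180 CPM in albino and 1074 CPM in pigmented members, with medians of 11 and 9 UMIs a cell. Cenpf, a kinetochore protein that accumulates in G2, stood at 877 and 893 CPM, with medians of 8 and 9 UMIs. Ccnb1, which encodes cyclin B1, the partner of Cdk1 at mitotic entry, stood at 267 and 250 CPM. Cdc20, which activates the anaphase-promoting complex, stood at 211 and 196 CPM, and Plk1, a kinase of mitotic entry and spindle assembly, at 141 and 134 CPM. Ube2c and Cenpf together therefore made up most of the sum, with shares of 44.1% and 32.8% in albino and 42.2% and 35.1% in pigmented members. Without Ube2c in the sum, 29.4% of albino and 21.2% of pigmented members would have stayed under 10. All 5 genes were found together in 54.6% of albino and 52.4% of pigmented members, and no more than 1 gene in 1 albino member.

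Per cell, both main genes were set beside a cell type that should lack them. A Cenpf UMI was present in 98.6% of albino and 99.8% of pigmented members, and in 7.82% and 9.18% of the cells of the ganglion cell gate. Ganglion cells are known to have left the cycle, but 19 of 780 albino cells (2.44%) and 23 of 795 pigmented cells (2.89%) of the gate reached the sum of 10, so the gate is not a pure background. For Ube2c the shares were 97.7% and 95.9% in members, and 11.8% and 12.2% in the ganglion cell gate. Median depths in that gate were 12876 and 11193 UMIs, close to those of the members. Fgf15, a growth factor of retinal progenitors, stood at 689 CPM in albino and 717 CPM in pigmented members, and Sfrp2, a secreted modulator of Wnt signals, at 2807 and 2908 CPM.

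No gap separated members from cells just under the limit of 10. There were 20 albino and 45 pigmented members with sums of 10 or 11, and 35 albino and 56 pigmented gate cells with sums of 8 or 9. Summed levels of the spindle and cytokinesis list were 5177 and 5071 CPM just inside, and 4867 and 4857 CPM just outside. Top2a, which untangles chromosomes in G2 and mitosis, stood at 761 and 702 CPM just inside, and at 689 and 620 CPM just outside. Replication genes summed to 3591 and 3490 CPM inside, and to 3980 and 3398 CPM outside. The limit thus cut a continuous range of values.

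Members were a smaller share of all kept cells in the albino library and a similar share of its progenitors. They were 6.21% of albino cells (5.43% to 7.06%) and 7.92% of pigmented cells (7.24% to 8.64%), a ratio of 0.784 (0.664 to 0.922). The progenitor gate itself held 25.2% of albino and 29.5% of pigmented cells. Within it, members were 24.6% in the albino library (21.8% to 27.6%) and 26.9% in the pigmented library (24.8% to 29.0%), a ratio of 0.917 (0.777 to 1.08). Ganglion marker content moved with the first ratio: with every cell of 10 or more ganglion marker UMIs left out, an alternative chosen after seeing the data, members were 10.97% and 11.96% of kept cells, a ratio of 0.917 (0.775 to 1.08). Whether it accounts for the difference was not tested.

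Other dividing cells gave similar ratios. Among margin cells (Gja1 or Otx1 present), 28.9% of albino and 30.8% of pigmented cells had a sum of 10 or more, a ratio of 0.941 (0.769 to 1.15). Among Atoh7 cells (at least 3 Atoh7 UMIs, without Gja1 and Otx1), 18.4% of albino and 19.3% of pigmented cells had such a sum, a ratio of 0.949 (0.803 to 1.12). A sum of UMIs depends on depth, so every cell was also thinned to 5900 UMIs, which left out 399 albino and 583 pigmented shallower cells, 14 and 11 of them members. Members then were 18.2% of the albino (15.6% to 21.0%) and 20.2% of the pigmented gate (18.3% to 22.3%), a ratio of 0.899 (0.737 to 1.09). Thinned shares were 16.2% and 15.8% of margin cells and 12.7% and 14.8% of Atoh7 cells. Median depth was 12848 and 13196 UMIs over all margin cells, and 9637 and 9576 UMIs over the progenitor gate.

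**Figure D1:**
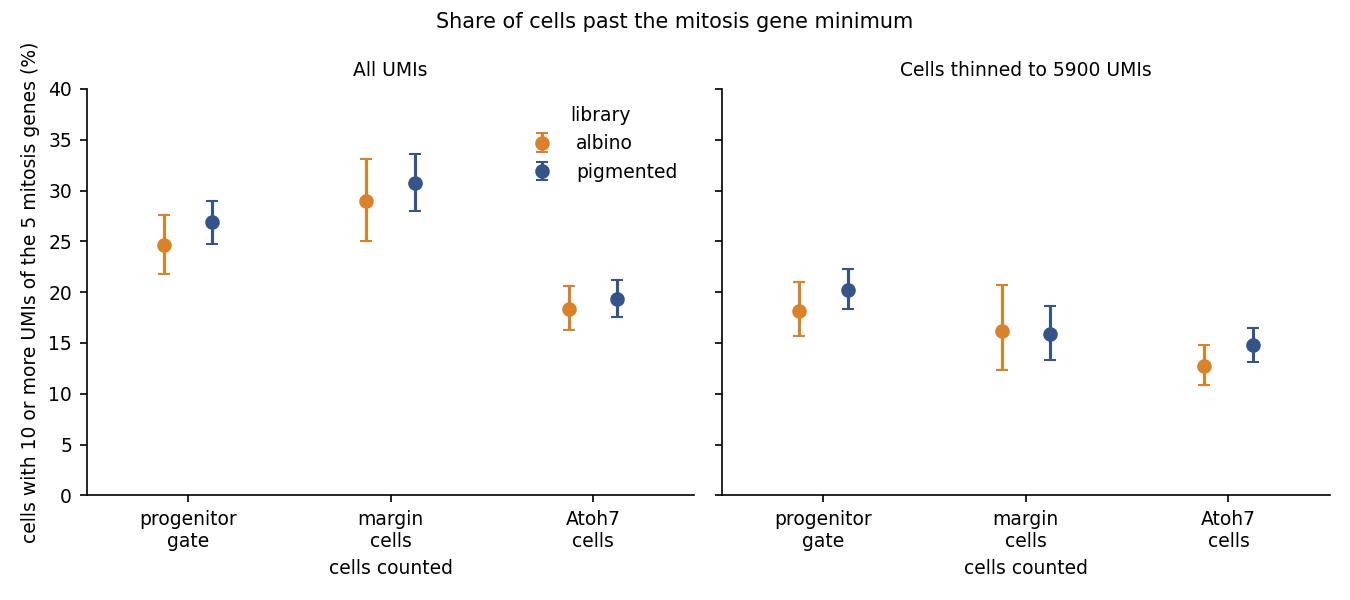
Percent of cells whose 5 mitosis genes summed to 10 or more UMIs, in the progenitor gate (the members), margin cells and Atoh7 cells, at full depth and thinned to 5900 UMIs, for the albino (orange) and pigmented (blue) library. Bars across the points are exact 95% intervals for counting error; the members' intervals of 21.8% to 27.6% and 24.8% to 29.0% overlap, and all shares are lower after thinning.

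Against the other cells of the progenitor gate, members had higher levels of nearly every mitosis gene, up to 21.4-fold for Fam83d in the pigmented library. The comparison grew out of the rule, which used the 5 mitosis genes of the same cells, so it describes the members and is no test of a difference. A gene was called higher or lower when its ratio was at least 2-fold in both libraries, with at least 50 UMIs a library. Of 9621 genes measured, 1.46% were called higher and 0.478% lower, and the median log2 ratio of all genes was -0.03 in the albino and -0.06 in the pigmented library. The list of spindle, microtubule and cytokinesis genes had 27 of 28 called higher, with a median log2 ratio of 2.1 (1.89 to 2.30) in albino and 2.17 (1.90 to 2.38) in pigmented cells.

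Fam83d, which brings casein kinase 1 to the spindle, stood at 26.5 CPM in albino and 27.3 CPM in pigmented members, against 1.74 and 1.28 CPM in other progenitors. Tuba1c, an α-tubulin isotype, stood at 122 and 102 CPM in members, against 7.26 and 9.12 CPM, ratios of 16.9 (12.4 to 23.4) and 11.2. Members of both libraries thus held more than 10 times the level of the other progenitors for both genes. The microtubule bundling gene Nusap1 was the most abundant of the spindle genes that ranked among the highest, at 510 and 506 CPM in members against 82.1 and 70.7 CPM, ratios of 6.22 (5.62 to 6.88) and 7.16. Ratios were 7.78 and 8.82 for Hmmr, a spindle assembly factor, and 5.93 and 6.67 for Prc1, which bundles the central spindle. Sapcd2, a regulator of spindle orientation, had ratios of 13.2 and 10.4. The remaining genes ranked among the 12 highest were Arhgef39 (11.1 and 12.8), Gas2l3 (6.65 and 6.80), the actin-binding Smtn (6.53 and 12.5), the centriole gene Hyls1 (5.95 and 7.81), Aurka and Cdc25c. Stmn1, which destabilises microtubules, was the exception of the list, at 2345 and 2246 CPM in members against 2057 and 1989 CPM. Its exons overlap those of another gene on the same strand, so its counts are uncertain.

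Of 14 kinases and phosphatases of mitotic entry and of the spindle checkpoint, 11 were called higher, with medians of 1.44 (0.19 to 2.35) in albino and 1.6 (0.91 to 2.31) in pigmented cells. Aurka, the centrosome kinase Aurora A, stood at 107 CPM in albino and 106 CPM in pigmented members, against 11.8 and 11.9 CPM in other progenitors. Cdk1, the kinase that starts mitosis, stood at 435 and 422 CPM, against 139 and 108 CPM, ratios of 3.14 (2.88 to 3.43) and 3.92 (3.66 to 4.20). Aurkb, the kinase of the chromosomal passenger complex, had ratios of 3.05 and 3.76, and Cdc25c, a phosphatase that activates Cdk1, of 6.58 and 6.61. Wee1, which holds Cdk1 inactive before mitosis, was at 1.0 and 1.31, and Plk4, the kinase of centriole duplication, at 1.14 and 1.15.

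Among 13 mitotic cyclin, Cks and anaphase-promoting complex genes 8 were called higher, with medians of 1.31 in albino and 1.38 in pigmented cells. Ccna2 (cyclin A2) had ratios of 3.72 and 3.94, Ccnb2 (cyclin B2) of 3.45 and 2.86, and Cks2, a Cdk1-binding subunit, of 4.56 and 4.72. Fzr1, the activator of the anaphase-promoting complex that follows Cdc20, had ratios of 2.88 and 3.02. The complex subunit Anapc11 had ratios of 1.25 and 1.18, under the limit. Of 20 kinetochore and centromere genes 13 were called higher, with medians of 1.55 and 1.75. Cenpa, the centromeric histone H3 variant, stood at 677 and 614 CPM in members against 105 and 133 CPM, ratios of 6.45 (5.91 to 7.06) and 4.61 (4.35 to 4.89). Cenpe, a kinetochore motor, had ratios of 5.36 and 6.07, and Birc5 (survivin) of 3.17 and 3.28, while Dsn1 was at 0.96 and 1.20 and Cenpq at 0.97 and 1.26. Of 17 chromosome structure genes, 7 were called higher. Top2a stood at 883 and 876 CPM, against 323 and 301 CPM, and the chromatin protein gene Hmgb2 at 3853 and 3811 CPM, against 1684 and 1669 CPM.

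**Figure D2:**
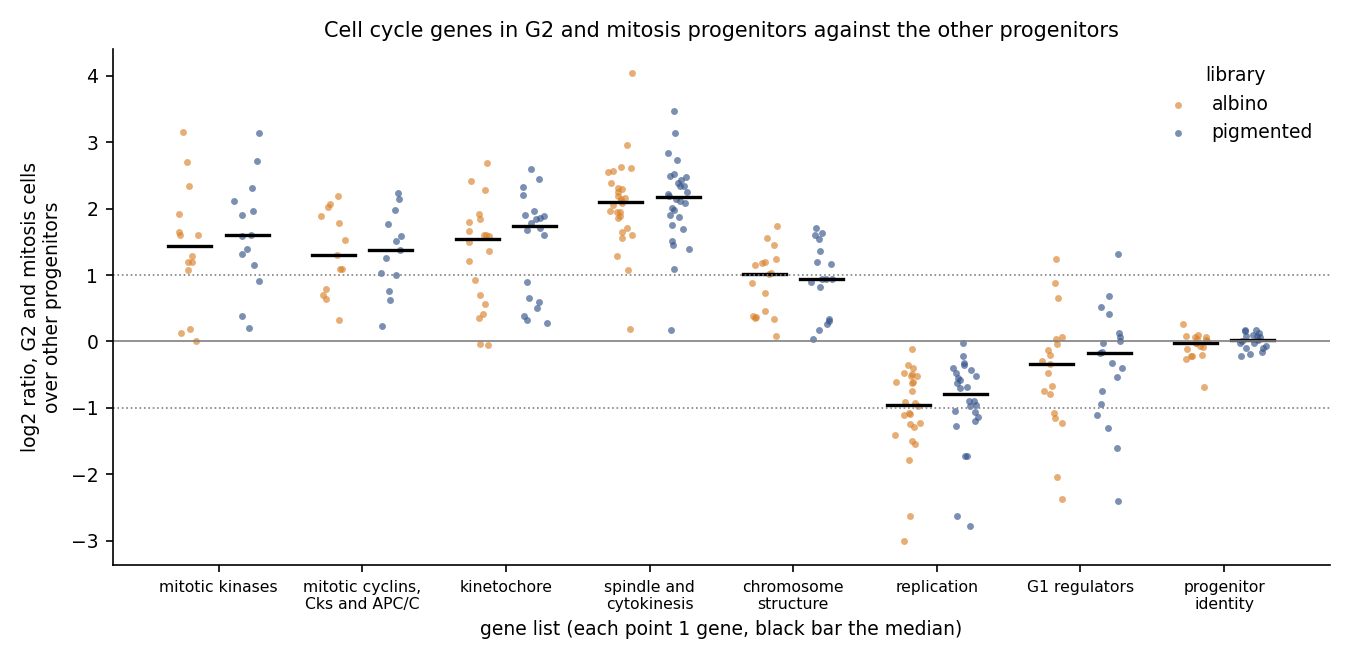
Ratio of members to other cells of the progenitor gate on the log2 scale (y axis), by gene list (x axis), in the albino (orange) and pigmented (blue) library. Points are genes and bars are medians of the points, with dotted lines at 2-fold. The spindle list sits highest at medians of 2.1 and 2.17, the replication list lies below 0 at -0.95 and -0.79, and the progenitor identity list lies at 0.

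Replication genes were lower in members. All 26 on the list had a lower level in both libraries, 9 were called lower, and the median log2 ratios were -0.95 (-1.25 to -0.61) in albino and -0.79 in pigmented cells. Ung, which removes uracil from new DNA, stood at 7.91 CPM in albino and 9.44 CPM in pigmented members, against 66.4 and 66.1 CPM in other progenitors. Cdc6, which loads the replicative helicase, stood at 4.81 and 5.21 CPM, against 31.9 and 33.3 CPM. The helicase subunit Mcm6 had ratios of 0.34 (0.29 to 0.40) and 0.41 (0.38 to 0.46), and the sliding clamp gene Pcna of 0.47 and 0.52. The nucleotide reductase gene Rrm1, at 0.92 and 0.98, was close to 1. Ccne2, which encodes the S phase cyclin E2, stood at 21.7 and 20.02 CPM in members against 113 and 107 CPM. The repair gene Alkbh2 had ratios of 0.27 and 0.25.

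Of 19 measured G1 regulators, 1 was called higher and 4 lower. The higher one was Cdkn2d, the Cdk4 and Cdk6 inhibitor p19, at 56.7 CPM in albino and 57.1 CPM in pigmented members, against 23.99 and 22.9 CPM in other progenitors. The lower ones were Ccne1, Ccne2, E2f1 and E2f2, all known as genes of S phase entry. The inhibitor gene Cdkn1b (p27) had ratios of 1.58 and 1.44. The D-type cyclins differed from each other in members. Ccnd1 stood at 1463 CPM in albino and 1441 CPM in pigmented members, against 1393 and 1436 CPM in other progenitors. Ccnd2, which the series has in its title, stood at 21.3 and 29.1 CPM in members against 50.5 and 56.1 CPM, ratios of 0.42 (0.32 to 0.56) and 0.52 (0.44 to 0.61), so that the limit of 2-fold was met in 1 library. Ccnd3 stood at 102 and 111 CPM, ratios of 0.82 and 0.88. All 3 cyclin genes have exons that overlap another gene on the opposite strand. So do other named genes, among them Ube2c, Cdc20, Plk1, Fgf15 and Sfrp2 of the rule. The strand setting of the counting is a detail not given in the sources used here.

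**Figure D3:**
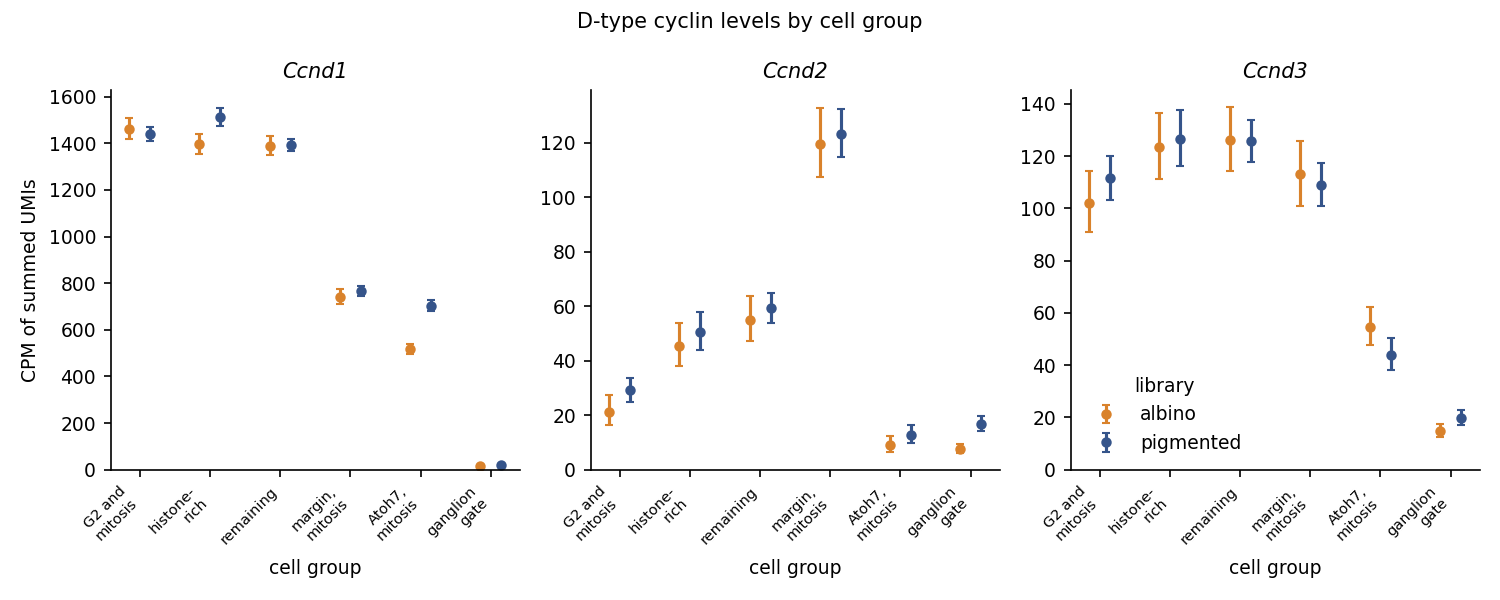
Levels of Ccnd1, Ccnd2 and Ccnd3 in CPM, on a linear axis, for the albino (orange) and pigmented (blue) library. The progenitors shown are members, other progenitors with at least 20 histone UMIs and the remaining ones. Beside them stand margin cells and Atoh7 cells with mitosis genes, and the ganglion cell gate. Bars across the points are exact 95% Poisson intervals. Ccnd1 is highest in progenitors (1463 and 1441 CPM in members) and Ccnd2 in margin cells (120 and 123 CPM), with members at 21.3 and 29.1 CPM.

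The progenitor identity list gave 0 of 18 genes called in either direction, with medians of -0.02 in albino and 0.01 in pigmented cells. Pax6, a homeobox gene of eye development, stood at 456 CPM in albino and 492 CPM in pigmented members, against 447 and 437 CPM in other progenitors. Six6 stood at 654 and 662 CPM, against 647 and 634 CPM, and Rax at 402 and 380 CPM, against 437 and 423 CPM. Sox2, a factor of neural stem cells, had ratios of 1.19 (1.11 to 1.29) and 1.13 (1.07 to 1.19). A Sox2 UMI was present in 93.1% of albino and 96.6% of pigmented members, beside 8.08% and 12.5% of cells of the ganglion cell gate. Neurogenic genes were also not called, in 0 of 14 measured, with medians of -0.31 and -0.26, and Btg2, an antiproliferative gene of neurogenic divisions, had ratios of 0.58 and 0.77.

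Higher mitosis lists in members follow from their choice by mitosis genes and do not check the label of G2 and mitosis. Histone transcripts went partly against that label. Replication-dependent histone mRNAs are known to accumulate in S phase and to be degraded at its end. At least 20 UMIs of such genes were found in 65.1% of albino and 69.3% of pigmented members. Among other progenitors the shares were 40.6% and 31.7%. Hist1h1b, a linker histone gene, stood at 962 CPM in albino and 1171 CPM in pigmented members. Its levels were 1532 and 1855 CPM in the other progenitors with at least 20 histone UMIs, 64.1 and 55.6 CPM in the remaining ones, and 24.3 and 36.5 CPM in the ganglion cell gate. Hist3h2ba was the exception, at 206 and 186 CPM in members but 1193 and 1115 CPM in the ganglion cell gate, where 52.3% and 38.9% of cells reached 20 histone UMIs. Of 49 histone genes measured, 0 were called and 45 were higher in members in both libraries, with medians of 0.43 and 0.71. Against the histone-rich other progenitors alone, histone genes had medians of -0.42 in albino and -0.44 in pigmented cells and spindle genes of 1.44 and 1.39. Against the remaining progenitors the medians were 2.48 and 2.83 for histone genes, and 3.08 and 2.92 for spindle genes. The split at 20 histone UMIs used these same histone genes. Histone values set beside those 2 groups therefore follow largely from the split and are a description. As a group, members held transcripts of S phase and of mitosis together, and these values do not place all of them past the end of S phase.

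Within the members, summed levels of histone and replication genes were lower and those of spindle genes higher where the sum of the 5 genes was higher. Members were split by sums of 10 to 14, 15 to 24 and 25 or more, with 49, 59 and 110 albino and 116, 109 and 241 pigmented cells. The sum chose and ordered them, so these values are a description. Histone genes summed to 8257, 7284 and 4545 CPM in albino and to 7243, 7059 and 5582 CPM in pigmented members. Replication genes summed to 3046, 2582 and 1828 CPM and to 3263, 2546 and 2009 CPM. The spindle list summed to 5294, 6065 and 9544 CPM in albino and to 5252, 6232 and 8817 CPM in pigmented members. Both libraries had the same order of the 3 ranges in the summed levels of all 3 lists. Shares of cells with at least 20 histone UMIs did not keep that order. They were 71.4%, 72.9% and 58.2% in albino and 71.6%, 65.1% and 70.1% in pigmented members, without adjustment for depth.

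Some genes differed more between the ranges than their lists. Tuba1c stood at 22.0, 51.9 and 194 CPM in albino and at 25.1, 47.9 and 153 CPM in pigmented members. Arl6ip1, an endoplasmic reticulum protein gene, stood at 358, 599 and 1500 CPM and at 371, 555 and 1326 CPM. Aurka stood at 45.8, 83.9 and 140 CPM and at 38.0, 74.5 and 145 CPM, while Cdk1 stood at 265, 288 and 570 CPM and 243, 264 and 552 CPM. Pcna stood at 295, 244 and 141 CPM and at 336, 230 and 154 CPM. Six6, a progenitor factor, had no such order, at 677, 587 and 678 CPM and at 672, 649 and 662 CPM. Median depth was 10707, 12347 and 13286 UMIs in albino and 10912, 10761 and 13257 UMIs in pigmented members, so the highest range was also the deepest.

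**Figure D4:**
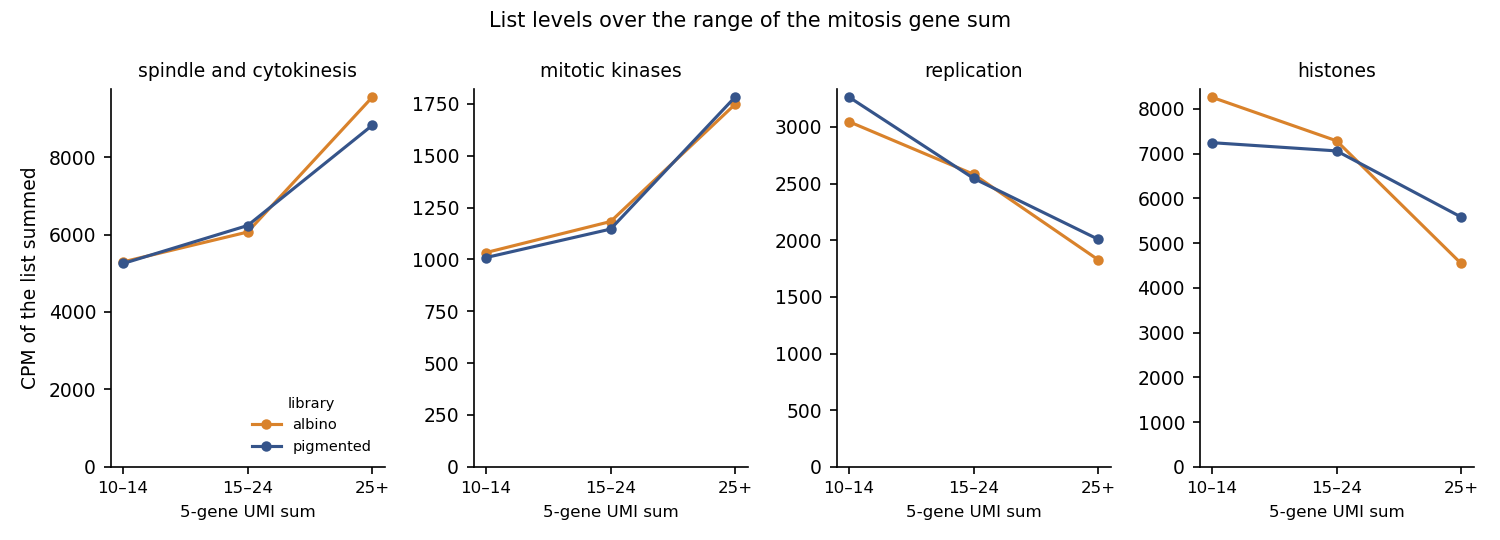
Summed CPM of gene lists in members split by the sum of the 5 mitosis genes (10 to 14, 15 to 24, 25 or more) in the albino (orange) and pigmented (blue) library. Spindle and kinase lists are higher in the range of 25 or more (spindle 9544 and 8817 CPM), and replication and histone lists are lower (histones 4545 and 5582 CPM). Progenitor identity genes, not drawn, stayed between 7163 and 7940 CPM.

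Members and margin cells with the same sum differed by less than 2-fold in each mitosis gene in at least 1 library, with levels mostly somewhat higher in members. Of 8225 genes, 0.498% were called at least 2-fold higher in members in both libraries and 0.888% lower. None of the genes measured in the 5 mitosis lists was called (14 kinases, 13 cyclins, 20 kinetochore, 28 spindle and 17 chromosome structure genes). Of these, 10 kinases, 11 cyclins, 16 kinetochore, 26 spindle and 15 chromosome structure genes were higher in members in both libraries, and the spindle medians were 0.18 in albino and 0.21 in pigmented cells. Median depth was 17100 and 17135 UMIs in these margin cells, beside 12475 and 12061 UMIs in members. The sum was a minimum in raw UMIs, so deeper cells could pass at a lower CPM. The part of depth in these ratios was not tested. The rules of the 2 cell groups differ in Gja1 and Otx1, absent from members, while both allowed at most 2 Atoh7 UMIs. Only members had to hold at least 1 UMI of Fgf15 and 3 of Sfrp2. Only margin cells were held to at most 2 UMIs of Col1a1, Col1a2 and Col3a1. The ratios below use genes outside the rules, but progenitor genes were compared after a choice by Fgf15 and Sfrp2 in members alone. In members 4 of 18 identity genes were called higher, namely Hes5 (2.46 in albino and 2.90 in pigmented cells) and Nr2e1 (2.04 and 2.03), Sox9 (2.41 and 2.21) and Ckb (2.503 and 2.66), with Hmga2 lower (0.34 and 0.39). Hes5 is a Notch target and Sox9 a factor of progenitors and glia. Of 9 margin genes measured 3 were lower, namely Ccnd2 (0.18 and 0.24), Zic1 (0.32 and 0.36) and Wfdc1 (0.18 and 0.24).

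Of the cyclins, Ccnd1 stood at 1463 CPM in albino and 1441 CPM in pigmented members, against 743 and 766 CPM in the margin cells, while Ccnd2 stood at 21.3 and 29.1 CPM, against 120 and 123 CPM. The inhibitor gene Cdkn1c (p57) was lower (0.42 and 0.37) and Cdkn2c (p18) higher (3.19 and 2.04). The glycolysis and hypoxia list had 0 of 13 genes called. Among the highest ranked genes, Cox4i2, an isoform of a cytochrome oxidase subunit, stood at 117 and 86.3 CPM in members against 22.4 and 24.1 CPM. Mgarp, a mitochondrial protein gene, stood at 225 and 210 CPM, against 74.4 and 65.7 CPM, and Ndufa4l2 had ratios of 5.51 and 3.03. Fgf3, a growth factor gene, stood at 68.8 and 77.1 CPM, against 14.1 and 26.5 CPM.

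Genes lower in members than in margin cells included some known from pigment cells. Trpm1, known from melanocytes, stood at 3.09 CPM in albino and 2.93 CPM in pigmented members, against 50.7 and 51.2 CPM in margin cells. Pmel, the fibril protein of melanosomes, stood at 0.69 and 0.98 CPM (2 and 6 UMIs in members), against 36.9 and 15.3 CPM. The margin level of Pmel lay in few cells, with 103 of 107 UMIs in 1 of 145 albino cells (1.39 CPM without it) and UMIs in 19 of 335 pigmented cells, whereas Trpm1 had UMIs in 44 albino and 98 pigmented margin cells. Rab38, which carries cargo to melanosomes, had 5 and 10 UMIs in members and ratios of 0.057 and 0.044. Sgk1, a kinase gene, stood at 0.34 and 1.46 CPM, 1 and 9 UMIs, against 26.9 and 41.2 CPM, ratios of 0.013 (0.00032 to 0.073) and 0.036 (0.016 to 0.069). After thinning all cells, 15 genes were called higher and 16 lower in place of 41 and 73.

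Set against Atoh7 cells with the same sum, members had far lower levels of neurogenic genes. Of 8625 genes 2.39% were called higher in members and 3.03% lower, and the median log2 ratio of all genes was 0.15 in albino and 0.05 in pigmented cells. Of 18 neurogenic genes 16 were called lower, with median log2 ratios of -3.25 in albino and -3.41 in pigmented cells. Atoh7 itself set both groups and is not counted. Members also had to hold Fgf15 and Sfrp2, which was not asked of Atoh7 cells. The comparison of neurogenic and identity genes thus grew out of the rules, so it describes the groups and is no test of a difference. Neurog2, a proneural factor, stood at 32.7 CPM in albino and 39.2 CPM in pigmented members, against 318 and 444 CPM in Atoh7 cells. Hes6, an antagonist of Hes1, stood at 153 and 175 CPM, against 1328 and 1665 CPM, and the Notch ligand gene Dll1 at 8.25 and 9.93 CPM, against 70.9 and 101 CPM. The cell cycle brake Btg2 stood at 51.6 and 79.9 CPM, against 393 and 535 CPM. Among the lowest ranked were the somatostatin receptor gene Sstr2, with 0 UMIs in albino members (at least 77.0-fold lower, with 3 counts over the albino members as the floor) and 1 UMI in pigmented members, and the Notch ligand gene Dll4, with 0 UMIs (at least 59.0-fold lower by the same floor) and 3 UMIs. Dlx2, a factor of interneurons and ganglion cells, stood at 0.69 and 0.81 CPM in members, 2 and 5 UMIs, against 82.0 and 95.5 CPM.

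Of 18 identity genes, 10 were called higher in members than in Atoh7 cells and 1 lower. Hes1, the Notch target that holds progenitors undifferentiated, stood at 660 CPM in albino and 747 CPM in pigmented members, against 161 and 195 CPM. Sox9 had ratios of 3.58 and 2.07 and Id3, an inhibitor of proneural factors, of 2.19 and 3.55. The lower one was the receptor gene Notch1. Hes5, also a Notch target, did not go with Hes1 and stood at 201 and 265 CPM in members, against 378 and 580 CPM in Atoh7 cells. Ccnd1 was higher in members, with ratios of 2.82 and 2.05, as was Ccnd2, with 2.38 and 2.30. Ganglion marker genes moved with this comparison, since 53.8% of albino and 52.4% of pigmented Atoh7 cells with the sum held 10 or more such UMIs, beside 2.29% and 2.58% of members. Without these cells, an alternative chosen after seeing the data, 76 genes were called higher and 131 lower in place of 206 and 261, and after thinning 132 and 158. The part of these cells in the single genes named was not tested. Atoh7 cells with the sum reached 123559 UMIs in the albino and 40154 UMIs in the pigmented library. Their surface ectoderm and lens markers summed to 119 and 49.4 CPM, and blood and macrophage markers to 29.9 and 2.70 CPM. Photoreceptor (321 and 473 CPM) and amacrine and horizontal markers (401 and 473 CPM) were lower in albino. Without cells over 50000 UMIs, also chosen later, 217 genes were called higher and 268 lower. Mixed barcodes were not tested for.

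Between albino and pigmented members, mitosis genes had like levels. The same minimum sum of mitosis genes chose the members of both libraries, so like levels can follow from that choice. These levels are a description and no test of a difference between the libraries. Here a gene was called at a ratio of at least 1.5-fold, and of 9321 genes 1.75% were called higher and 2.04% lower in albino members. Median log2 ratios were -0.02 for kinases, 0.04 for cyclins, -0.02 for the kinetochore list and 0.01 for the spindle list, beside -0.005 for all genes, and none of the genes of the 5 mitosis lists was called. The replication list had a median of -0.09 (-0.17 to -0.00018), with 19 of 26 genes lower in albino members and none called. The identity list had a median of -0.01 and 0 of 18 called. Of 18 G1 regulators, 1 was called, E2f8, a repressor of E2F target genes, at 13.4 CPM in albino and 22.0 CPM in pigmented members, a ratio of 0.61 (0.42 to 0.88).

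Ccnd1 stood at 1463 CPM in albino and 1441 CPM in pigmented members, a ratio of 1.02 (0.98 to 1.05), and Ccnd3 at 102 and 111 CPM, and the ratio was 0.92 (0.80 to 1.05). Ccnd2 stood at 21.3 CPM in albino (16.3 to 27.3, 62 UMIs) and 29.1 CPM in pigmented members (25.02 to 33.7, 179 UMIs), a ratio of 0.73 (0.54 to 0.98). A Ccnd2 UMI was present in 15.6% of albino and 19.3% of pigmented members, in 10.3% and 12.1% after thinning, and in 2.20% and 2.53% of the thinned ganglion cell gate. The ratio was 0.90 (0.78 to 1.03) in other progenitors, 0.97 in margin cells with mitosis genes, and lowest within members of sums 10 to 14, at 23.7 and 58.1 CPM (0.41, 0.21 to 0.73). In those with 15 to 24 and with 25 or more it was 0.99 and 0.93. In the range of 10 to 14, a Ccnd2 UMI was in 7 of 49 albino and 32 of 116 pigmented cells, and 1 pigmented cell held 16 UMIs. With the cell of most Ccnd2 UMIs left out of each library, the ratio over all members was 0.74 (0.54 to 1.01). The difference between the ranges was not tested.

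Neurogenic genes were lower in albino members as a list, with a median of -0.21 (-0.51 to -0.04), 12 of 15 genes lower and 3 of 14 called lower, beside 2.04% of all genes. Gadd45g, a growth arrest gene, stood at 3.44 CPM in albino (10 UMIs) and 11.4 CPM in pigmented members (70 UMIs), a ratio of 0.30 (0.14 to 0.59). Btg2 stood at 51.6 and 79.9 CPM, and the ratio was 0.65 (0.53 to 0.78), and Rgs16, a regulator of G protein signals, was the third. Of the identity genes, the Notch target Hes5 stood at 201 and 265 CPM, and the ratio was 0.76 (0.69 to 0.84), beside 0.97 (0.91 to 1.03) in other progenitors. Hes1 stood at 660 and 747 CPM, and the ratio was 0.88 (0.84 to 0.93), beside 1.01 in other progenitors. For Btg2 the ratio was 0.86 in other progenitors, 0.73 in Atoh7 cells and 0.62 in the ganglion cell gate, so a lower level was not seen in members alone. The median of the neurogenic list was -0.12 in other progenitors, -0.10 in margin cells and -0.44 in Atoh7 cells, where the median of all genes was -0.13.

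Immediate-early genes respond to stimuli within minutes and also to tissue dissociation. Their median between albino and pigmented members was -0.39, with an interval that includes 0 (-0.73 to 0.10). Of 11 genes 9 were lower in albino members, and 2 of 10 were called. Fos stood at 299 CPM in albino and 469 CPM in pigmented members, a ratio of 0.64 (0.59 to 0.69), and Fosb at 103 and 172 CPM, a ratio of 0.60. Jun stood at 221 and 298 CPM, a ratio of 0.74. The Fos ratio was 0.67 in other progenitors, 0.71 in margin cells and 0.64 in the ganglion cell gate, and the list medians were -0.32 in other progenitors, -0.46 in margin cells and -0.36 in Atoh7 cells. Its level was thus lower in the albino library in each of these groups of cells. The glycolysis list had a median of 0.10 (0.02 to 0.25), with 12 of 14 genes higher in albino members, and medians of 0.11 in other progenitors, 0.08 in margin cells and 0.30 in Atoh7 cells.

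**Figure D5:**
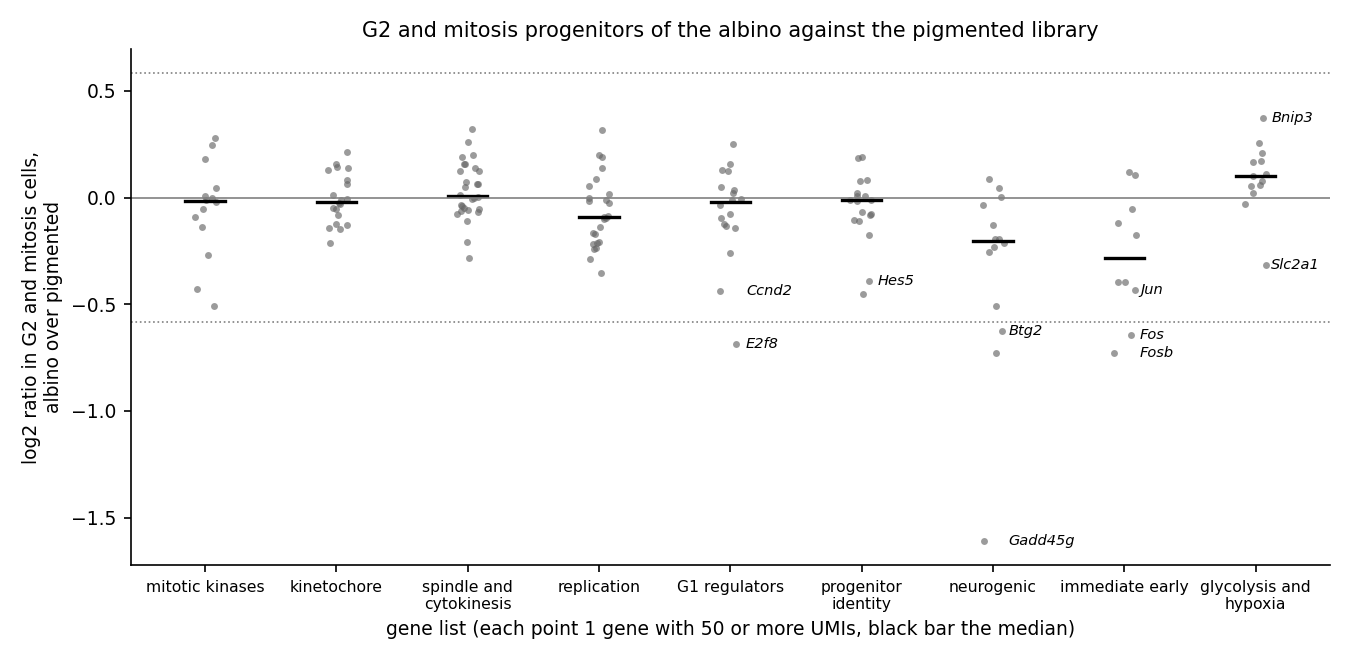
Ratio of albino to pigmented members on the log2 scale (y axis) for each gene with at least 50 UMIs over both libraries, by list (x axis). Points are genes, bars are medians of the plotted genes and dotted lines mark 1.5-fold. Mitosis and identity lists lie at 0, and neurogenic and immediate-early genes such as Fos (0.64) and Btg2 (0.65) lie lower; list medians in the text also count genes of 20 to 49 UMIs, which places the immediate-early median at -0.39.

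Among the genes whose ratio interval lay farthest from 1, retinoic acid synthesis genes stood in both directions. Aldh1a1, the dorsal retinal dehydrogenase, stood at 166 CPM in albino and 103 CPM in pigmented members, a ratio of 1.62 (1.43 to 1.82), beside 1.39 in other progenitors, 1.23 in margin cells and 1.63 in Atoh7 cells with mitosis genes. Aldh1a3, the ventral retinal dehydrogenase, stood at 49.2 and 81.0 CPM, and the ratio was 0.61 (0.50 to 0.73), beside 0.89 in other progenitors, 1.12 in margin cells and 0.71 in Atoh7 cells with mitosis genes. The 2 enzyme genes thus differed in opposite directions in members and in Atoh7 cells. Eif2s3x, an X-linked translation factor gene that escapes X inactivation, stood at 69.1 and 42.8 CPM, a ratio of 1.61, or 1.47 among cells with Xist and no Y-linked UMI. Ccn1, a secreted matrix protein gene, stood at 26.8 and 49.5 CPM, and Nol4l at 12.7 and 35.0 CPM. Dse, an enzyme of dermatan sulfate synthesis, and Chrna3, an acetylcholine receptor subunit gene, had under 10 UMIs in albino members, with ratios of 0.32 and 0.35.

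Several ranked genes had much of their UMIs in few cells. Dqx1, with UMIs in 18 albino and 25 pigmented members, had a ratio of 11.5 and 37.7% of its albino UMIs in 1 cell, and with the top cell of each library left out the ratio was 10.7. The olfactory receptor gene Olfr655 had a ratio of 6.81, or 3.06 with the top cell of each library left out, and the galanin gene Gal of 4.88, or 2.39. Zfp9 had a ratio of 2.77, or 1.02 without those cells, and the kinase gene Nek4 of 1.74, or 1.29. Barx1, with 2 UMIs in albino and 52 UMIs in pigmented members, had 82.7% of the pigmented UMIs in 1 cell. Col3a1, a mesenchymal collagen whose exons overlap another gene on the same strand, had a ratio of 0.36 with 66.7% of its albino UMIs in 1 cell, or 0.15 without the top cells. Among cells with Xist and no Y-linked UMI the ratios were 19.6 for Dqx1, 11.4 for Olfr655, 8.46 for Gal, 5.76 for Zfp9, 1.37 for Barx1 and 0.63 for Col3a1. The other genes among the 10 ranked highest in albino members were Pgm2l1 (2.29), a sugar phosphate synthase gene, Kctd1 (1.95) and S100a10 (1.53).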

How the data were processed

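Single-cell 3′ mRNA libraries (10x Genomics v2 kit, per the labels) were analysed from the matrices of raw UMI counts per gene and cell that the authors deposited. Per the submitters' processing notes, reads were processed with Cell Ranger 2.1.1 against mm10, while the file headers name version 5.0.1; use of strand was not given in the sources used here. Barcodes had already been selected by the authors (lowest totals of 501 albino and 500 pigmented UMIs). Cells with under 500 genes or over 10% mitochondrial UMIs were left out, 40 gene symbols were shared by more than 1 ID, and CPM was computed from summed counts in Python 3.11.15 with NumPy 2.4.6, SciPy 1.17.1 and pandas 2.3.3. Doublets were called with Scrublet in Scanpy 1.11.5. Shares have Clopper-Pearson, levels Poisson and ratios conditional exact 95% intervals. Log2 ratios add 1 UMI to each group, and list medians count genes of at least 20 UMIs, with a binomial order-statistic interval over genes, which are not independent replicates. Named genes were the 10 highest and 10 lowest by the interval bound nearest to 1 between libraries, the 12 highest and 10 lowest in members over other progenitors and 8 each way over the other groups, with at least 50 UMIs and without mitochondrial, ribosomal protein, haemoglobin, sex-linked marker and unnamed genes, besides the most abundant genes of each list and the D-type cyclins. Rgs16 and other list members at or near the limit were named after their values were seen. The members and lists were chosen with earlier results of these data known. The interval scripts were tested on simulated data.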

Additional observations from a re-analysis of the deposited data

Results flagged for a closer look

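The spindle and cytokinesis list of members over Atoh7 cells with mitosis genes went in opposite directions in the libraries, with a median log2 ratio of 0.29 (0.23 to 0.39) in the albino and -0.11 (-0.25 to -0.0036) in the pigmented library. The difference was not tested. With cells of 10 or more ganglion marker UMIs left out, the medians were -0.14 and 0.091, and without cells over 50000 UMIs the albino median was 0.068.

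Ganglion marker genes in members with a sum of 25 or more over those with 10 to 14 had a median log2 ratio of 2.17 (1.59 to 2.97) in the albino and -1.41 (-2.72 to -0.60) in the pigmented library. The difference was not tested. In albino members these markers summed to 131, 194 and 558 CPM in the 3 ranges, of which 0%, 25.3% and 75.6% lay in 0, 2 and 3 cells with 10 or more such UMIs. In pigmented members they summed to 708, 437 and 239 CPM, of which 84.9%, 78.3% and 51.6% lay in 2, 2 and 8 such cells. Without these cells the sums were 131, 153 and 142 CPM in albino and 111, 98.9 and 121 CPM in pigmented members, and the medians were 0.21 over 4 genes and 0.11 over 5 genes.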

How the results depend on the processing

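No paired analysis was possible because each group has 1 library. Of the shares and counts of called genes, 118 values under alternatives stayed within their intervals or within 1.5 times and 10 moved. Thinned to a fixed depth, 107 genes were higher in albino than pigmented members (163 at full depth). Of members over other progenitors, 80 genes were lower with a sum of at least 1000 CPM and 77 with every cell weighted equally, in place of 46. Over margin cells with mitosis genes, 15 were higher and 16 lower after thinning and 26 higher with equal weights, in place of 41 and 73. Over Atoh7 cells with mitosis genes, 132 were higher and 158 lower after thinning, and 76 and 131 without cells of 10 or more ganglion marker UMIs, in place of 206 and 261. Of list medians 1317 values stayed within the interval of the reported one, 85 moved and 12 reversed, the causes not being tested. Over margin cells with a minimum sum of 15, the replication median was -0.0055 in albino and -0.0023 in pigmented cells and the pigmented ganglion marker median -0.29, or -0.73 with 1000 CPM. Over Atoh7 cells, the albino kinetochore median was -0.13 after thinning, -0.076 with equal weights and -0.11 without ganglion marker cells, the albino spindle median -0.15 and -0.14 in the first and last of these, the albino histone median -0.23 and -0.51, and the pigmented spindle median 0.091 without ganglion marker cells. Of named genes 564 values held, 42 moved and 6 reversed. Among cells with Xist and no Y-linked UMI the log2 ratios were 0.042 for Barx1, -0.0047 for Arl6ip1, 0.011 for Rpl41 and 0.43 for Tubb3, and Tubb3 was at 0.60 with doublet calls removed and 0.52 without ganglion marker cells. The share of members among kept cells had ratios of 0.771 to 0.917 over all alternatives and the share of the progenitor gate 0.899 to 0.965. Depth limits genes under about 50 UMIs in the albino members, and 1 library a group leaves the spread between animals unmeasured.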

Other observations

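Genes with known dorsal or ventral patterns in the retina were looked up in members after the values of Aldh1a1 and Aldh1a3 were seen. The dorsal factor genes Tbx2 and Tbx3 stood at 41.6 and 44.7 CPM in albino and at 29.0 and 32.6 CPM in pigmented members, ratios of 1.44 (1.13 to 1.82) and 1.37 (1.09 to 1.72), beside 0.94 and 1.23 in other progenitors. Tbx5 had a ratio of 1.17 at 3.44 CPM in albino and 2.93 CPM in pigmented members. Of the ventral genes, the homeobox gene Vax2 stood at 70.8 CPM in albino and 91.6 CPM in pigmented members, a ratio of 0.77 (0.66 to 0.91), beside 0.94 in other progenitors. The receptor genes Ephb2 and Bmpr1b stood at 40.2 and 13.1 CPM in albino and at 49.8 and 21.2 CPM in pigmented members, ratios of 0.81 (0.65 to 1.003) and 0.62 (0.42 to 0.89), beside 0.90 and 0.97 in other progenitors. Ephb3 had 2 UMIs in albino and 24 UMIs in pigmented members. The dorsal signal gene Bmp4 was at 1 UMI in albino and 16 UMIs in pigmented members, against the direction of the other dorsal genes, and the dorsal ligand genes Efnb1 and Efnb2 had ratios of 1.04 and 1.05. Whether the 2 sorts took different parts of the eye was not tested.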
